A study of Mus musculus with 8 samples.

Results

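Extracellular matrix genes were compared between *Hdac3* knockout (KO) and empty vector (EV) control MCECs, a mouse cardiac endothelial cell line. The set was chosen by gene name: the collagens, laminins, fibronectin, fibrillins, fibulins, nidogens, perlecan, agrin, elastin, matricellular proteins, small leucine-rich proteoglycans, glypicans, syndecans, lysyl hydroxylases, hyaluronan synthases and microfibril-associated proteins. It held 59 of the 8278 genes with counts, of which 7976 are protein coding. In the mouse annotation, 112 protein-coding genes carry such names, and the other 53 (among them *Col1a2*, *Col6a3*, *Col18a1*, *Lamc1*, *Vcan* and *Postn*) were not analysed here. All 8278 genes had an adjusted p under 0.05 in the deposited comparison of the same libraries, so a gene in the set had already been selected for a difference between KO and EV. Shares of changed genes are therefore read against the same share over all 8278 genes. The set was also proposed with earlier results of these data known, so its shares describe it and are not independent support.

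Bulk RNA sequencing was done on 4 EV and 4 KO libraries. KO cells were MCECs transduced by lentivirus with an *Hdac3* guide RNA in the lentiCRISPR v2 vector, and EV cells were MCECs transduced with the empty vector. Whether the KO line was 1 clone is not given in the sources used here. The study's reporting form describes its replicates in vitro as typically technical ones and the labels do not name separate cultures, so the p-values measure the spread between these libraries, which may be technical. The same form also states that the figure legends give numbers of biological replicates, and the legend for these data gives 4 per group. Library totals were 15775327 to 21262575 reads in EV and 19356714 to 22255684 in KO. *Hdac3*, which encodes a class I histone deacetylase, had normalized counts of 1943, 2077, 2064 and 2147 in EV and 1558, 1465, 1496 and 1531 in KO (log2 fold change -0.45 ± 0.04, two-sided exact permutation p = 0.0286, the smallest that 4 against 4 libraries allow). A count over the whole gene does not show the edit itself. The study reports that it checked the deletion in KO against EV MCECs at the protein level, by western blot.

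The endothelial label was set against marker genes. *Pecam1*, the defining endothelial adhesion molecule, had raw counts of 1, 0, 0 and 1 in EV and 2, 9, 2 and 4 in KO, so this defining marker goes against the label. Of 14 endothelial markers, 6 had values, with a summed level of 26.2 to 28.3 FPKM (fragments per kilobase and per unit of library depth, the scale on which genes are compared here) in EV and 20.9 to 22.4 in KO. Markers without values, in this and the other lists, were outside the genes with counts, which had been selected for a difference. They may still be expressed, so a sum over part of a list can be too low. The 4 mesothelial and epicardial markers (*Upk3b*, *Msln*, *Wt1*, *Tbx18*) summed to 1609 to 1653 FPKM in EV and 1127 to 1155 in KO. Fibroblast and mesenchymal markers (5 of 9 with values) summed to 70.7 to 73.5 FPKM in EV and 58.7 to 61.6 in KO. Smooth muscle markers (3 of 6) went from 24.3 to 30.2 FPKM in EV to 5.73 to 7.0 in KO. Single markers of a list went both ways. Of the fibroblast and mesenchymal markers, *Pdgfrb*, *Pdgfra*, *Twist1* and *Thy1* were lower (-2.29 ± 0.08, -1.42 ± 0.10, -0.43 ± 0.08 and -0.13 ± 0.04 on the log2 scale) and *Ddr2* higher (0.62 ± 0.04). Without EV replicate 4, *Thy1* was at -0.11 and not called. Of the smooth muscle markers, *Tagln* and *Acta2* were lower (-2.25 ± 0.08 and -1.99 ± 0.12) and *Des* higher (1.62 ± 0.22). Of the endothelial markers, *Tek*, *Kdr*, *Egfl7*, *Flt1* and *Eng* were lower (-1.41 to -0.16) and *Pecam1* was called higher at the counts above. The call of *Egfl7* was lost with adjustment over 30000 genes and without EV replicate 3 or KO replicate 2 (-0.47 to -0.34), and that of *Pecam1* with DESeq2, with adjustment over 30000 genes and without EV replicate 2 or 3 or KO replicate 2 (2.07 to 2.96). Of the mesothelial and epicardial markers, *Upk3b*, *Msln* and *Wt1* were lower (-0.46 ± 0.02, -0.25 ± 0.02 and -0.20 ± 0.03). *Tbx18* was called higher with overlapping groups (0.10 ± 0.03), a call lost with adjustment over 30000 genes, without EV replicate 1, 3 or 4 or KO replicate 1 (0.08 to 0.10) and with scaling by library totals, where it was -0.02. The only leukocyte marker of 6 with values, the macrophage gene *Cd68*, had a log2 fold change of 1.20 ± 0.08, and none of 6 cardiomyocyte markers had values. The part of these markers in the results below was not tested. In bulk libraries, fewer cells of a type and less RNA per cell cannot be told apart.

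The extracellular matrix is built from fibrous collagens that carry load, from basement membranes in which networks of laminin and type IV collagen are tied together by nidogen and perlecan, and from elastic fibres, adhesive glycoproteins and proteoglycans that bind growth factors and water. Collagen chains are hydroxylated, folded and trimmed by dedicated enzymes, and many collagens are assembled from chains encoded by different genes. In the developing heart, matrix between endocardium and myocardium is laid down and removed as trabeculae form.

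Genes of one protein can lie side by side in the genome, and 5 pairs of the 59 genes lay within 250000 bases of each other. *Col4a1* and *Col4a2*, the chains of the common collagen IV network, lie head to head on chromosome 8 and their gene bodies overlap by 22 bases (chr8:11198423-11312826, minus strand, and chr8:11312805-11449287, plus strand; mm10). *Col4a4* and *Col4a3*, chains of the specialised network of kidney and lung basement membranes, lie head to head on chromosome 1, with 71 bases between them (chr1:82448423-82586849, minus strand, and chr1:82586921-82722059, plus strand). The first pair was higher in KO and the second lower, and the promoters of *Col4a1*, *Col4a2* and *Col4a4* are shown. *Col4a3* had no promoter entry, so the second pair is represented only by *Col4a4*. Promoters of *Gpc3* and *Col8a1*, which fell by more than 1 on the log2 scale, are shown with them. Each sequence holds 250 bases before and 50 after the annotated start (RefSeq, GRCm38.p6), read 5′ to 3′ on the gene's strand. Capitals mark matches, on either strand, to the TATA box letters TATAAA, the CCAAT box letters CCAAT, the GC box core GGGCGG, the TEAD-type letters GGAATG, the AP-1-type letters TGANTCA or the SMAD-type letters CAGAC. The letters of no motif contain those of another. The windows are chr8:11312777-11313076, minus strand, for *Col4a1*, chr8:11312555-11312854, plus strand, for *Col4a2*, chr1:82586800-82587099, minus strand, for *Col4a4*, chrX:52613925-52614224, minus strand, for *Gpc3*, and chr16:57754688-57754987, minus strand, for *Col8a1*.
Col4a1: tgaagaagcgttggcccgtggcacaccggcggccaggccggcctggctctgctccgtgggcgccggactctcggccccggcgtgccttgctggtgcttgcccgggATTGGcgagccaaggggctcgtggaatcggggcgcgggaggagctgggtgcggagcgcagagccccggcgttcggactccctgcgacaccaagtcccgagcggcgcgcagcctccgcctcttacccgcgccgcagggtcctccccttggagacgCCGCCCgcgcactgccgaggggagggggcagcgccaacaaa
Col4a2: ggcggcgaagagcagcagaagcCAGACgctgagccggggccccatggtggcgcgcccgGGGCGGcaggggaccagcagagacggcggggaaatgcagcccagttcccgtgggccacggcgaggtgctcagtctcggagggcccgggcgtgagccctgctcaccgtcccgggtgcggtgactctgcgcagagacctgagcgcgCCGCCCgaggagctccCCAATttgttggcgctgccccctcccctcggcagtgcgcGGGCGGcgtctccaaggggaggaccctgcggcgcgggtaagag
Col4a4: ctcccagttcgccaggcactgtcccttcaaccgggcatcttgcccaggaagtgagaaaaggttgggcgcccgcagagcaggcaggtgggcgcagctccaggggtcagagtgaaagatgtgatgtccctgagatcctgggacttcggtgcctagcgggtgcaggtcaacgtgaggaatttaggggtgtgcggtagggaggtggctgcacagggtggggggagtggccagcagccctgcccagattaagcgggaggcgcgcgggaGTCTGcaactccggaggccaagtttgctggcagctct
Gpc3: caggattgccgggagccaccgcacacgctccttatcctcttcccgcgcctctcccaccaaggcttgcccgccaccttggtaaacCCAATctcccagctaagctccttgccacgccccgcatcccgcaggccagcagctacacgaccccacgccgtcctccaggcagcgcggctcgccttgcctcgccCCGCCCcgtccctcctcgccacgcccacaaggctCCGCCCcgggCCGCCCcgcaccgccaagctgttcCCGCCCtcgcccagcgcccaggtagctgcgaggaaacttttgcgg
Col8a1: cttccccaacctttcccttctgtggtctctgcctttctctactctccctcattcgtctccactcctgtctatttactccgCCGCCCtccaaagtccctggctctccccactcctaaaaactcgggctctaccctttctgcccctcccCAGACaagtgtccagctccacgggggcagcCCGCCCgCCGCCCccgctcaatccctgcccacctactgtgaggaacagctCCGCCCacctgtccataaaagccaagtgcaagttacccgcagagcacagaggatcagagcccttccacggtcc

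The annotated starts of *Col4a1* and *Col4a2* are 21 bases apart and their windows share 78 bases, so the same letters appear in both, on opposite strands. GGGCGG, the core of a GC box, was matched 1 time in the *Col4a1* window, 3 times in that of *Col4a2* and 4 times each in those of *Gpc3* and *Col8a1*. CCAAT was matched 1 time each in the windows of *Col4a1*, *Col4a2* and *Gpc3*. GGGCGG was not matched in the *Col4a4* window, which held only CAGAC, at 1 position. Among the 59 genes, 43 had an entry, with 52 promoters in all. GGGCGG stood in 73.1% of these, in 64.0% of 7754 promoters of the protein-coding genes with counts and in 35.7% of all 32851 promoters in the table. CCAAT stood in 28.8%, 37.3% and 37.4%, TATAAA in 11.5%, 7.14% and 13.6%, GGAATG in 11.5%, 12.2% and 14.7%, TGANTCA in 1.92%, 5.18% and 7.81%, and CAGAC in 55.8%, 46.5% and 49.6%, in the same order. These matches are letters in a window and are not binding sites.

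Most of the 59 matrix genes were lower in *Hdac3* KO MCECs. At an adjusted p under 0.01 in edgeR's quasi-likelihood test, 43 of the 59 genes (72.9%) were lower and 15 (25.4%) higher, where 49.6% of all 8278 genes were lower and 47.1% higher. A fall of 1 or more on the log2 scale was found in 15 of the 59 (25.4%) against 8.36% of all genes. A rise of that size was found in 1 of the 59 (1.69%), the laminin gene *Lamc3*, against 4.43%, at counts of 4.44 to 7.31 in EV and 9.42 to 22.1 in KO, with 6.27% of its exon bases under a gene on the other strand. The median log2 fold change was -0.42 over the 59 genes and 0.06 over all genes. *Sparc* was the only gene of the set not called (log2 fold change 0.04 ± 0.02, edgeR adjusted p = 0.068). In 55 of the 59 (93.2%) the 4 EV and 4 KO libraries did not overlap, against 91.1% of all genes. The reads of the 59 genes made up 3.04% ± 0.06 (SD, n = 4) of each EV library and 2.85% ± 0.06 of each KO library. Their summed level was 6724 ± 69.5 FPKM in EV and 5936 ± 67.4 FPKM in KO.

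Scaling the libraries by their totals alone, without TMM normalization, moved the median of all genes by -0.12 and gave 44 genes of the set lower and 8 higher, while over all genes 49.8% were then lower and 32.3% higher. With that scaling *Sparc* was called lower (-0.073) and *Cyr61* had a log2 fold change of -0.038 in place of 0.08. *Col5a1*, *Col5a2*, *Hspg2*, *Nid1*, *Mfap3* and *Mfap1a* kept positive values of 0.0044 to 0.32 but were no longer called. FPKM values are scaled to library totals, so a gene with a small rise in normalized counts can have the same FPKM in both groups.

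**Figure D1:**
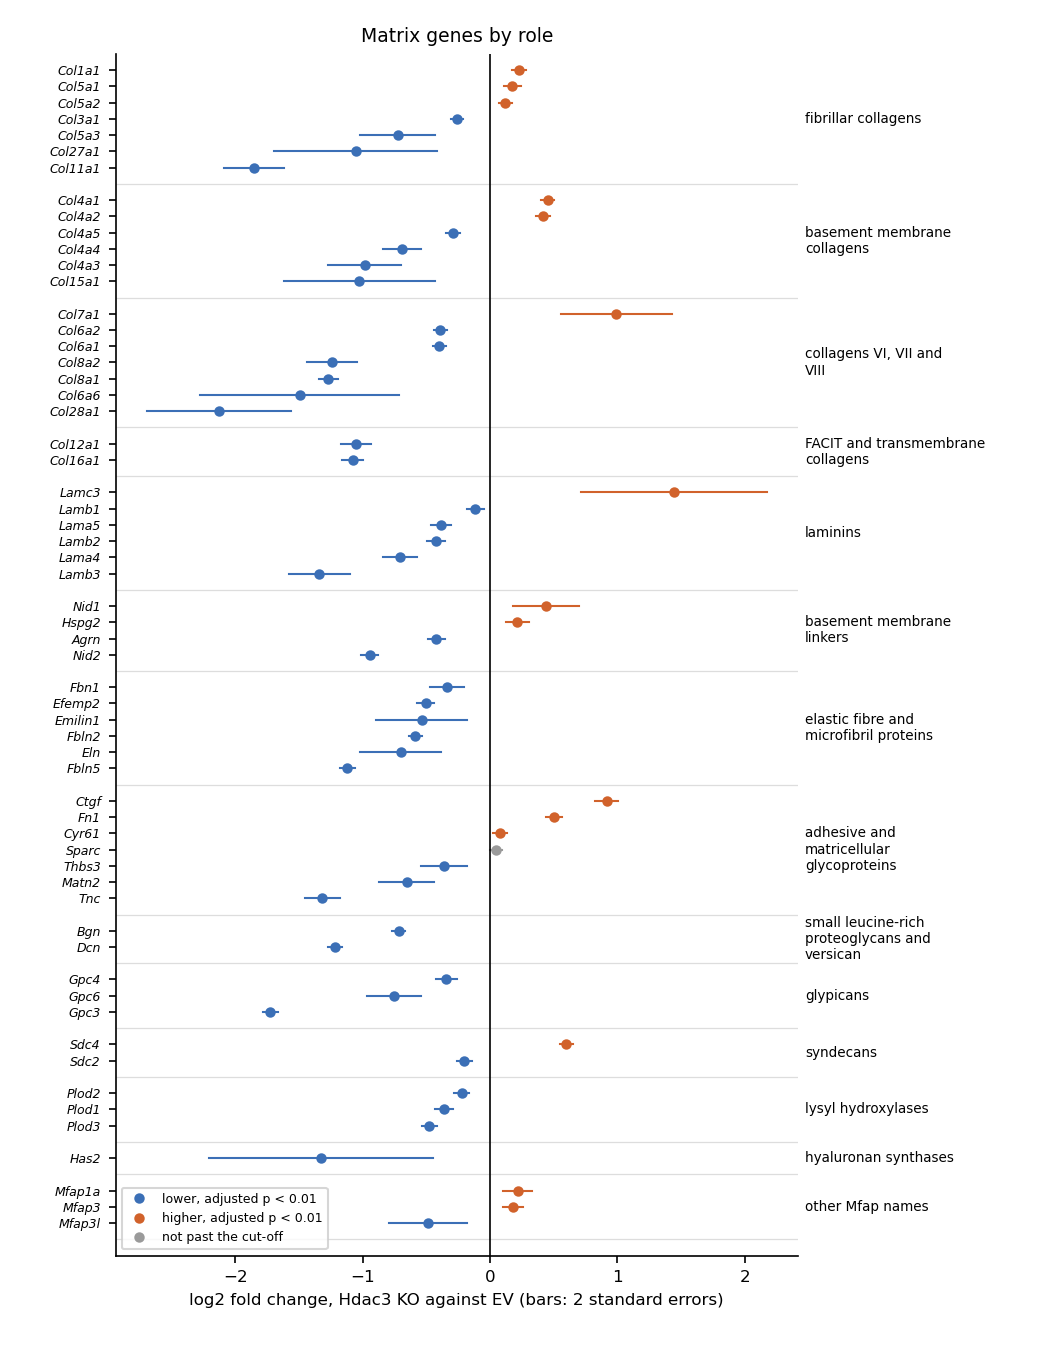
Log2 fold change of the 59 matrix genes, *Hdac3* KO against EV (x axis), with bars of 2 standard errors on either side, by role in the matrix. Blue genes were lower and orange genes higher at an adjusted p under 0.01, and the grey gene, *Sparc*, was not called. All 6 elastic fibre genes and all 3 glypicans lie left of 0, while *Col4a1*, *Col4a2*, *Fn1*, *Sdc4* and *Ctgf* lie right of it.

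Falls and rises were also counted by the level of the gene. Of the 14 matrix genes with a mean of 100 FPKM or more, 6 were lower and 7 higher, where 25.7% of all genes of that level were lower and 71.1% higher. Between 10 and 100 FPKM, 16 of 20 matrix genes were lower, against 39.9% of all genes of that level. Between 1 and 10 FPKM, 10 of 11 were lower, against 65.9% of all genes, and under 1 FPKM 11 of 14 were lower, against 60.0%. At each of the 4 levels the matrix genes thus had a larger share of falls than all genes of that level, and none of these shares was tested. The level limits were chosen with the values known.

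**Figure D2:**
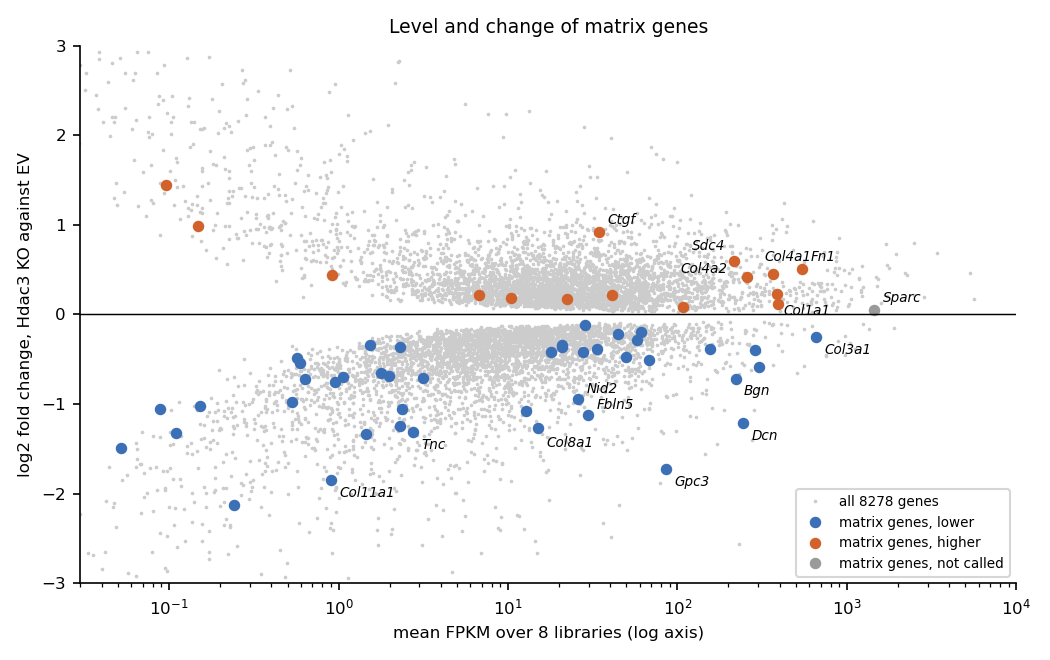
Log2 fold change, *Hdac3* KO against EV (y axis), against the mean FPKM over 8 libraries (x axis, log scale), for the 59 matrix genes (large points) and all 8278 genes (small grey points, 70 of them outside the axes). The matrix genes above 100 FPKM lie on both sides of 0, and above 50 FPKM only *Gpc3* and *Dcn* fell by more than 1.

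The fibrillar collagens form the rope-like fibres of connective tissue. Of 7 with values (of 11 annotated), 4 were lower and 3 higher, near the shares over all genes (49.6% lower, 47.1% higher), and their summed level was 1533 ± 34.6 FPKM in EV and 1395 ± 18.1 FPKM in KO. *Col3a1*, the chain of reticular collagen III, was the most abundant of them (742 ± 11.6 FPKM in EV and 573 ± 7.7 FPKM in KO, mean ± SD, n = 4, as throughout). *Col3a1* had normalized counts of 76013, 79061, 78301 and 77153 in EV and 65760.2, 65054, 65233 and 63955 in KO. All KO libraries lay below all EV libraries, a fall of 1.19-fold (log2 fold change -0.26 ± 0.02 (SE), edgeR adjusted p = 4.3e-12). *Col1a1*, the main chain of collagen I, moved the other way, with normalized counts of 39654, 44127, 41223 and 41330.5 in EV and 50165, 48474, 46935 and 49686 in KO. Its rise was 1.17-fold, with no overlap between the groups (log2 fold change 0.23 ± 0.03 (SE), edgeR adjusted p = 2.8e-09), and with scaling by library totals it was 0.11 on the log2 scale and still called. Its level per length was 373 ± 15.7 FPKM in EV and 404 ± 11.8 FPKM in KO. The other chain of collagen I, *Col1a2*, was not analysed here.

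Collagen V sets the width of collagen I fibres. Its common chains *Col5a1* and *Col5a2* were called higher by 0.18 and 0.12 on the log2 scale, calls that scaling by library totals ended (0.06 and 0.0044). In FPKM, *Col5a2* had 393 ± 8.51 FPKM in EV and 394 ± 8.41 FPKM in KO. The minor chain *Col5a3* fell, with normalized counts of 83.1, 107, 93 and 88.7 in EV and 70.5, 42.1, 52.7 and 60.9 in KO (log2 fold change -0.72 ± 0.15 (SE), edgeR adjusted p = 3.3e-05). *Col11a1*, a chain of collagen XI best known from cartilage, had the largest fall of the fibrillar group. Its gene spans chr3:114030540-114220718. Normalized counts of *Col11a1* were 214, 237, 189 and 189 in EV and 51.6, 64, 59.3 and 52.5 in KO. No KO library came near the EV range. The fall was 3.61-fold (log2 fold change -1.85 ± 0.12 (SE), edgeR adjusted p = 2.6e-16). *Col27a1*, with means under 20 in both groups, was also called lower, but not without KO replicate 1 (-0.90).

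The basement membrane collagens with values went both ways (6 of 8 annotated, without *Col4a6* and *Col18a1*). *Col4a1* and *Col4a2*, whose chains form the network present in nearly all basement membranes, rose together. In EV, *Col4a1* had 38643, 41812, 40647 and 39810.3 normalized counts, against 56275, 56362, 52836 and 54849.9 in KO. *Col4a2* had 26482, 28992, 27709 and 28166 in EV and 38055, 37739.8, 35775 and 36874 in KO. In both genes every KO library lay above every EV library, with rises of 1.37-fold (log2 fold change 0.45 ± 0.03 (SE), edgeR adjusted p = 2.9e-17) and 1.33-fold (log2 fold change 0.41 ± 0.03 (SE), edgeR adjusted p = 5.3e-16). The other chains with values fell, which made 4 genes of the group lower and 2 higher (all genes 49.6% lower, 47.1% higher). *Col4a5*, found in several specialised basement membranes, had normalized counts of 7884 to 8319 in EV and 6438 to 6762 in KO (log2 fold change -0.29 ± 0.03 (SE), edgeR adjusted p = 5.9e-12). *Col4a4* had 426, 535, 478 and 477 in EV and 269, 339, 272 and 306 in KO (log2 fold change -0.69 ± 0.07 (SE), edgeR adjusted p = 1.7e-10). *Col4a3* had 121, 124, 98.2 and 124 in EV and 56.8, 70.4, 40.5 and 68.4 in KO (log2 fold change -0.98 ± 0.14 (SE), edgeR adjusted p = 1.4e-07), and 5.65% of its exon bases lie under exons of a gene on the other strand. *Col15a1*, which encodes a collagen beneath endothelium and muscle, was called lower at counts of 8.42 to 24 (-1.02 ± 0.29). *Col4a1* and *Col4a2* were far more abundant than the rest (324 ± 10.1 FPKM and 229.6 ± 7.91 FPKM in EV, against 66 ± 1.77 FPKM for *Col4a5*), and the summed level of the 6 genes rose by 19.2% (623 ± 19.2 FPKM in EV and 742 ± 21.9 FPKM in KO).

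Ratios within a library do not depend on how the libraries were scaled. For 12 pairs of genes, picked with their values known, the ratio was corrected for gene length and is given with the KO minus EV difference of its log2 (± SE). Since the pairs were picked by their values, no test is given. The ratio of *Col4a1* to *Col4a5* was 4.84, 4.97, 4.85 and 4.94 in EV and 8.22, 8.24, 8.11 and 8.26 in KO, a log2 difference of 0.74 ± 0.01 with no overlap between the groups. The ratio of *Col4a1* to *Col4a2* was 1.41 ± 0.0231 in EV and 1.45 ± 0.00752 in KO. That difference was 0.04 ± 0.01 on the log2 scale, small beside the rise of either gene, though the groups did not overlap. For *Col4a3* against *Col4a4* the groups overlapped (0.29 ± 0.0404 in EV and 0.234 ± 0.0395 in KO, log2 difference -0.32 ± 0.17). With single libraries left out, that difference was -0.40 to -0.19.

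The ratio of *Col1a1* to *Col3a1* rose from 0.489 to 0.524 in the EV libraries to 0.675 to 0.729 in the KO libraries (log2 difference 0.49 ± 0.03, with no overlap between the groups). That of *Col5a1* to *Col5a2* overlapped between groups (0.0556 ± 0.00172 in EV and 0.0577 ± 0.00312 in KO, log2 difference 0.05 ± 0.04). With single libraries left out, that difference was 0.020 to 0.078. The ratio of *Col6a1* to *Col6a2* was 1.84 ± 0.0215 in EV and 1.83 ± 0.0131 in KO (log2 difference -0.01 ± 0.01, and -0.017 to -0.0052 with single libraries left out). The ratio of *Col8a1* to *Col8a2* was 6.54 ± 0.274 in EV and 6.62 ± 1.24 in KO, with a wide spread in KO (log2 difference -0.0027 ± 0.15), and the groups of both pairs overlapped. The spread of the *Col8a1* to *Col8a2* ratio would hide a difference smaller than that error.

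**Figure D3:**
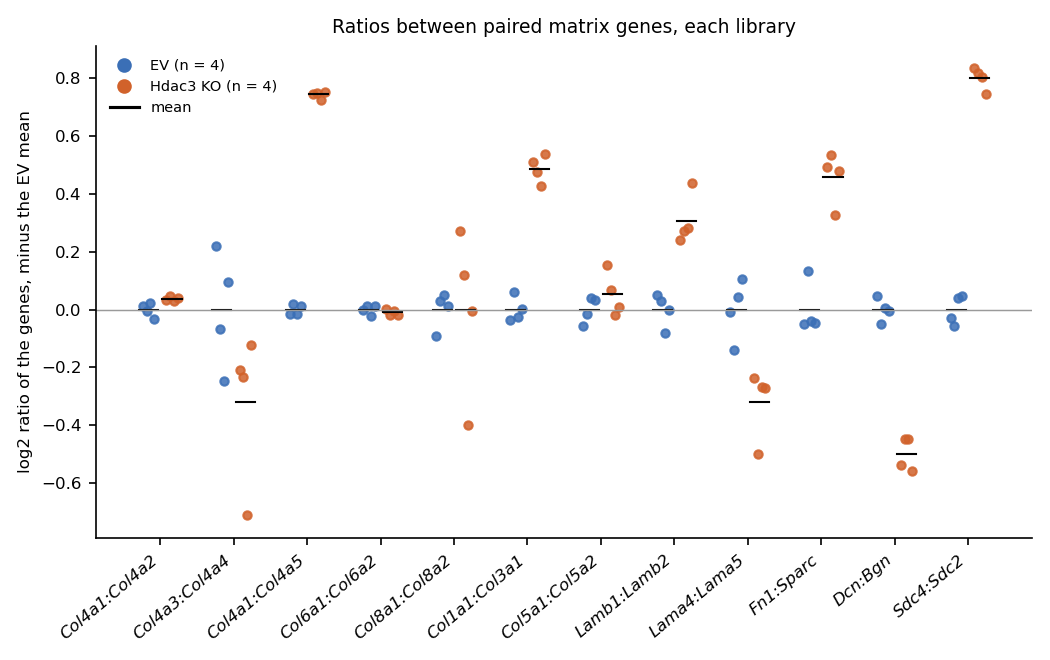
Length-corrected ratio of each of 12 pairs of matrix genes in every library, as log2 and relative to the EV mean of that pair (y axis). Blue points are EV and orange points KO libraries (4 each), with black lines at the means. The groups are apart upward for *Col4a1* to *Col4a5*, *Col4a1* to *Col4a2*, *Col1a1* to *Col3a1*, *Lamb1* to *Lamb2*, *Fn1* to *Sparc* and *Sdc4* to *Sdc2*. They are apart downward for *Lama4* to *Lama5* and *Dcn* to *Bgn*. They overlap for *Col4a3* to *Col4a4*, *Col5a1* to *Col5a2*, *Col6a1* to *Col6a2* and *Col8a1* to *Col8a2*.

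The group of collagens VI, VII and VIII was lower in 6 of 7 genes (of 11), where 49.6% of all genes were lower, and its summed level was 546 ± 6.43 FPKM in EV and 375 ± 12 FPKM in KO. *Col6a1* and *Col6a2*, chains of the beaded filaments of collagen VI, were abundant and both fell. EV libraries had 25443, 26434, 25707 and 26386 normalized counts of *Col6a1*, and KO libraries 20459, 19863, 19726 and 18858. For *Col6a2* they were 16612, 17093, 17038 and 17054 in EV and 13306, 13117, 12920.1 and 12446 in KO. No KO library reached the EV range of either gene (1.32-fold lower, log2 fold change -0.40 ± 0.03 (SE), edgeR adjusted p = 5.4e-16, and 1.31-fold lower, log2 fold change -0.39 ± 0.03 (SE), edgeR adjusted p = 5.6e-16). The third common chain, *Col6a3*, was not analysed here. *Col8a1* and *Col8a2*, chains of the short-chain collagen VIII of vessel walls and corneal basement membranes, fell by more than 1 on the log2 scale. *Col8a1* spans chr16:57624258-57754737. *Col8a1* had normalized counts of 2072, 2078, 2099.9 and 2082 in EV and 863, 874, 831 and 893 in KO. *Col8a2* spans chr4:126286793-126314330. Normalized counts of *Col8a2* were 286, 264, 263 and 268 in EV and 92.6, 104, 142 and 116 in KO. The falls were 2.41-fold (log2 fold change -1.27 ± 0.04 (SE), edgeR adjusted p = 2.6e-26) and 2.36-fold (log2 fold change -1.24 ± 0.10 (SE), edgeR adjusted p = 1.4e-13). *Col28a1*, of the beaded filament type and placed with them, fell from between 25.5 and 34.6 in EV to between 4.69 and 9.47 in KO (log2 fold change -2.13 ± 0.28 (SE), edgeR adjusted p = 2.6e-08), and *Col6a6*, with means under 20, was also called lower. *Col7a1*, the collagen of anchoring fibrils, was called higher at low counts, 14.2 to 23.1 in EV and 33 to 38.9 in KO (log2 fold change 0.99 ± 0.22 (SE), edgeR adjusted p = 9.4e-05).

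*Col12a1* and *Col16a1*, FACIT collagens that sit on the surface of fibres, were the only 2 of 14 genes of their group with values, and both fell by more than 1 on the log2 scale, where 49.6% of all genes were lower and 8.36% lower by 1 or more. *Col16a1* spans chr4:130047840-130099283. In EV, *Col16a1* had 1730.3, 1759, 1779 and 1701 normalized counts, against 806, 892, 798 and 803 in KO. The fall was 2.11-fold (log2 fold change -1.08 ± 0.04 (SE), edgeR adjusted p = 6.2e-23). *Col12a1* spans chr9:79598991-79718831. EV libraries had 739, 747, 659 and 691 normalized counts of *Col12a1*, and KO libraries 341, 346, 318 and 362. The fall was 2.07-fold (log2 fold change -1.05 ± 0.06 (SE), edgeR adjusted p = 6.1e-18). In both genes the EV and KO ranges were well apart.

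Laminins are trimers of an alpha, a beta and a gamma chain that found the basement membrane. Of 6 genes with values (of 11), 5 were lower and 1, the low-count *Lamc3*, higher (all genes 49.6% and 47.1%), and the summed level was 109 ± 4.44 FPKM in EV and 79.7 ± 3.7 FPKM in KO. Of the alpha chains, *Lama5* was the more abundant (39.4 ± 2.37 FPKM in EV and 27.9 ± 2.14 FPKM in KO) and *Lama4*, the chain typical of vascular laminins, the less (3.99 ± 0.12 FPKM in EV and 2.27 ± 0.185 FPKM in KO). *Lama5* had normalized counts of 8139.9, 9208, 8311 and 8088 in EV and 6765, 6915, 5815 and 6384 in KO. For *Lama4* they were 436, 449.8, 461 and 469 in EV and 309, 263, 259.9 and 285 in KO. Both fell without overlap, *Lama4* by more (-0.71 ± 0.07 and -0.38 ± 0.04 on the log2 scale). Their ratio went from 0.102 ± 0.00729 to 0.0815 ± 0.00658, with no overlap between the groups.

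Of the beta chains, *Lamb2* fell from between 3245 and 3583 in EV to between 2447 and 2719 in KO (log2 fold change -0.42 ± 0.03 (SE), edgeR adjusted p = 2.2e-13). *Lamb1* changed least, with 3249, 3537, 3231 and 3329 in EV and 3105, 3100.3, 2930.1 and 3201 in KO (log2 fold change -0.11 ± 0.03 (SE), edgeR adjusted p = 0.0013), and its call was lost when EV replicate 2 or KO replicate 3 was left out (-0.09 each). The ratio of *Lamb1* to *Lamb2* was 0.94 ± 0.0372 in EV and 1.16 ± 0.0727 in KO, with no overlap between the groups. *Lamb3*, a chain of epithelial laminin-332, fell most. It spans chr1:193301957-193343878. Normalized counts of *Lamb3* were 149.5, 159.9, 176 and 168 in EV and 51.6, 61.3, 68.7 and 75.9 in KO. No KO library came near the EV range, and the fall was 2.53-fold (log2 fold change -1.34 ± 0.12 (SE), edgeR adjusted p = 2.6e-12). The main gamma chain, *Lamc1*, was not analysed here.

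Linker proteins tie the laminin and collagen IV networks together, and here 2 genes were called lower and 2 higher, about the shares over all genes (49.6% and 47.1%). *Nid2*, nidogen-2, fell, with normalized counts of 3163, 3192, 3337 and 3216 in EV and 1801, 1714, 1618 and 1579 in KO (log2 fold change -0.94 ± 0.03 (SE), edgeR adjusted p = 6.3e-23), and 8.45% of its exon bases lie under a gene on the other strand. Its relative *Nid1* was far less abundant (0.807 ± 0.141 FPKM in EV, against 35.2 ± 0.87 FPKM for *Nid2*) and was called higher with overlapping groups (log2 fold change 0.44 ± 0.13 (SE), edgeR adjusted p = 0.002). That call was lost without EV replicate 1 or 3, without KO replicate 4 or with scaling by library totals (0.32 to 0.38). *Hspg2*, which encodes perlecan, the large heparan sulfate proteoglycan of basement membranes, had 9871, 12091, 10308 and 10301 in EV and 12869.9, 13057, 10760.2 and 12696 in KO. The groups overlapped, and its call (log2 fold change 0.21 ± 0.05 (SE), edgeR adjusted p = 5.6e-05) was lost with DESeq2 (0.23) and with scaling by library totals (0.10). *Agrn*, agrin, fell from between 3278 and 3686 in EV to between 2507 and 2686 in KO (log2 fold change -0.42 ± 0.03 (SE), edgeR adjusted p = 9.5e-14).

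The elastic fibre and microfibril genes were all lower, 6 of the 6 with values (of 15), where 49.6% of all genes were lower, and their summed level went from 503 to 304 FPKM. *Fbln2*, fibulin-2, was the most abundant (376 ± 6.03 FPKM in EV and 231 ± 5.01 FPKM in KO). In EV, *Fbln2* had 32955, 34276, 33644 and 34393 normalized counts, against 22989, 22618, 21853 and 22702 in KO. The fall was 1.5-fold (log2 fold change -0.59 ± 0.02 (SE), edgeR adjusted p = 2.4e-21). *Fbln5*, needed for elastic fibre assembly, fell most. It spans chr12:101746565-101819055. EV libraries had 4429, 4586, 4666 and 4574 normalized counts of *Fbln5*, and KO libraries 2108, 2082, 2079 and 2133. Within each group the libraries were close together, and between groups they were 2.17-fold apart (log2 fold change -1.12 ± 0.03 (SE), edgeR adjusted p = 1.9e-27). *Efemp2*, or fibulin-4, which brings lysyl oxidase to elastin, went from between 2663 and 2796 in EV to between 1857 and 2050.4 in KO (log2 fold change -0.50 ± 0.03 (SE), edgeR adjusted p = 6.4e-16). *Eln*, elastin itself, was low and fell from between 57 and 77.7 in EV to between 35.7 and 43.1 in KO (log2 fold change -0.70 ± 0.16 (SE), edgeR adjusted p = 0.00014). *Fbn1*, fibrillin-1, the backbone of microfibrils, went from between 354 and 445 in EV to between 309 and 330.4 in KO (log2 fold change -0.34 ± 0.07 (SE), edgeR adjusted p = 2.6e-05), and 20.1% of its exon bases lie under a gene on the other strand. *Emilin1* was called lower at 30.1 to 61.1 (log2 fold change -0.54 ± 0.18 (SE), edgeR adjusted p = 0.0049), a call lost with DESeq2, with adjustment over 30000 genes and without EV replicate 2 or 4 or KO replicate 1 or 3 (-0.54 to -0.45).

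**Figure D4:**
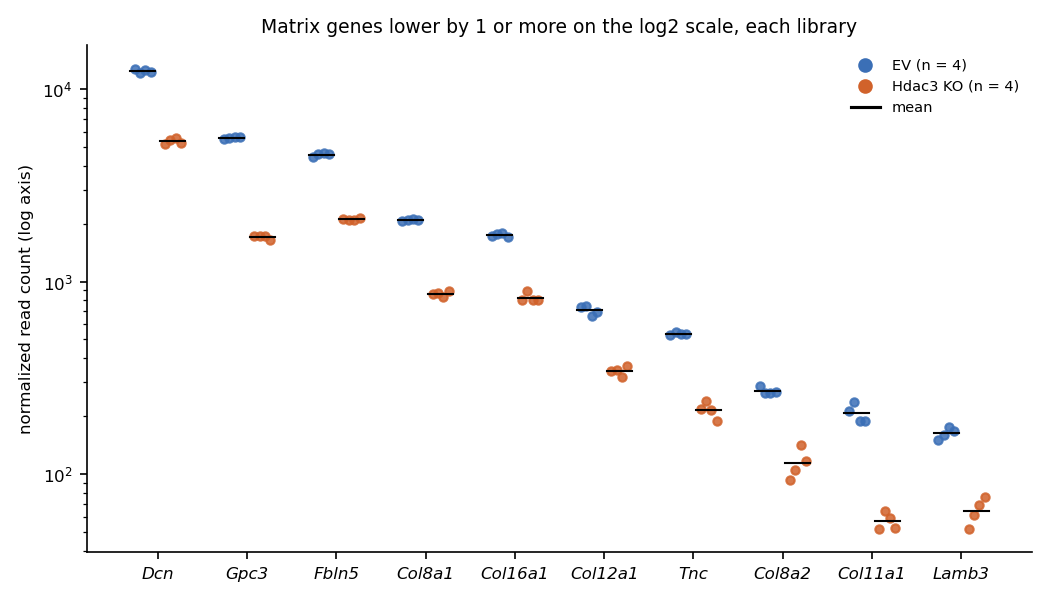
Normalized read count (y axis, log scale) of the 10 matrix genes that fell by 1 or more on the log2 scale with a mean of at least 100 in EV, in each of 4 EV (blue) and 4 *Hdac3* KO (orange) libraries, with black lines at the means. In each of the 10 genes, which were picked for their fall, every KO library lies below every EV library. Groups did not overlap in 91.1% of all genes. The genes run from *Dcn* at 12428 in EV down to *Lamb3* at 163.

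Adhesive and matricellular glycoproteins link cells to the matrix or tune their attachment, and their genes went both ways, with 3 lower, 3 higher and *Sparc* not called (all genes 49.6% lower, 47.1% higher). *Sparc*, which binds collagen and calcium, was the most abundant of the 59 genes (1487 ± 30.6 FPKM in EV and 1414 ± 15.8 FPKM in KO). *Sparc* had normalized counts of 63756, 62880.0, 64349.7 and 66108 in EV and 66428, 65147, 66973 and 66618 in KO. The groups overlapped, and the sign of its difference turned with scaling by library totals (-0.07, called). *Fn1*, fibronectin, the adhesive glycoprotein on which many matrix fibres assemble, rose. Normalized counts of *Fn1* were 70383, 78914, 71608 and 73272 in EV and 106860.0, 107885, 95962 and 106132 in KO. Every KO library lay above every EV library, including KO replicate 3, the lowest of them. The rise was 1.42-fold (log2 fold change 0.50 ± 0.03 (SE), edgeR adjusted p = 3.2e-16), and the ratio of *Fn1* to *Sparc* was 0.317 ± 0.0203 in EV and 0.435 ± 0.0268 in KO, with no overlap between the groups.

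*Ctgf* and *Cyr61*, the CCN2 and CCN1 proteins, are secreted matricellular proteins and textbook targets of YAP signalling. In EV, *Ctgf* had 1156, 1247, 1182 and 1128 normalized counts, against 2178, 2002, 2229.6 and 2466 in KO. The rise was 1.89-fold without overlap (log2 fold change 0.91 ± 0.05 (SE), edgeR adjusted p = 2.9e-19), and 23.2% of its exon bases lie under a gene on the other strand. *Cyr61*, by contrast, had 4046, 4112, 4288 and 4216 in EV and 4323, 4376, 4314 and 4594 in KO. Its call (log2 fold change 0.08 ± 0.03 (SE), edgeR adjusted p = 0.0092) was lost with the replicate number as a block, with adjustment over 30000 genes and without EV replicate 1, 2 or 4 or KO replicate 4 (0.06 to 0.09), and its sign turned with scaling by library totals (-0.04). *Tnc*, tenascin-C, an anti-adhesive glycoprotein of developing and injured tissue, fell most. It spans chr4:63959785-64047015. EV libraries had 525, 549.7, 532 and 534 normalized counts of *Tnc*, and KO libraries 217, 239.7, 214 and 189. The fall was 2.49-fold (log2 fold change -1.31 ± 0.07 (SE), edgeR adjusted p = 8.2e-19). *Matn2*, a matrilin that bridges filaments, went from between 144 and 162 in EV to between 84.2 and 107 in KO (log2 fold change -0.65 ± 0.11 (SE), edgeR adjusted p = 1.4e-06), and *Thbs3*, a thrombospondin, from between 191 and 217 in EV to between 144 and 172 in KO (log2 fold change -0.36 ± 0.09 (SE), edgeR adjusted p = 0.00035), with 6.59% of its exon bases under a gene on the other strand.

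The small leucine-rich proteoglycans decorin and biglycan bind collagen fibres and growth factors of the TGF-beta family, and both genes fell (all genes 49.6% lower). *Dcn* spans chr10:97479500-97518162. *Dcn* had normalized counts of 12775, 12132, 12531 and 12274 in EV and 5153, 5449, 5585 and 5245 in KO. All 4 EV libraries lay far above the KO libraries, and the fall was 2.32-fold (log2 fold change -1.21 ± 0.03 (SE), edgeR adjusted p = 6.6e-29). *Bgn* had 14046, 14264, 14194 and 14012 in EV and 8501, 8455, 8669.9 and 8771 in KO, a fall of 1.64-fold (log2 fold change -0.72 ± 0.02 (SE), edgeR adjusted p = 6.6e-24). The summed level of the 2 genes fell by 53.0%, 633 ± 9.69 FPKM in EV and 298 ± 5.74 FPKM in KO. In EV *Dcn* was the more abundant per length and in KO *Bgn* was (ratio of *Dcn* to *Bgn* 1.24 ± 0.0343 in EV and 0.881 ± 0.0348 in KO, with no overlap between the groups).

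The cell surface heparan sulfate proteoglycans went in different directions. Glypicans, held to the membrane by a lipid anchor, modulate growth factor signals, and all 3 with values (of 6) were lower, where 49.6% of all genes were. *Gpc3* had the largest fall of the matrix genes above 10 FPKM. It spans chrX:52272426-52613950. Normalized counts of *Gpc3* were 5514, 5549, 5658 and 5653 in EV and 1714, 1715, 1714 and 1633 in KO. The level was 134 ± 1.7 FPKM in EV and 37.5 ± 0.967 FPKM in KO, a fall of 3.3-fold in normalized counts (log2 fold change -1.72 ± 0.03 (SE), edgeR adjusted p = 1.1e-32). Its neighbour *Gpc4*, 107173 bases away on chromosome X, went from between 1142 and 1233 in EV to between 902 and 997 in KO (log2 fold change -0.34 ± 0.04 (SE), edgeR adjusted p = 2.4e-09). *Gpc6* went from between 146 and 167 in EV to between 84.4 and 98.9 in KO (log2 fold change -0.75 ± 0.11 (SE), edgeR adjusted p = 7.4e-08). Syndecans span the membrane. *Sdc4*, a co-receptor for fibronectin in focal adhesions, rose. In EV, *Sdc4* had 8422, 7953, 8393 and 8344 normalized counts, against 12550.0, 12324, 12757 and 12526 in KO. The rise was 1.51-fold without overlap (log2 fold change 0.60 ± 0.03 (SE), edgeR adjusted p = 4.0e-21). *Sdc2* fell, from between 4096 and 4360.1 in EV to between 3545 and 3788 in KO (log2 fold change -0.20 ± 0.03 (SE), edgeR adjusted p = 1.3e-07). The ratio of *Sdc4* to *Sdc2* was 2.67 ± 0.0949 in EV and 4.64 ± 0.124 in KO, with no overlap between the groups.

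The lysyl hydroxylases modify lysines of procollagen before cross-linking, and all 3 genes fell (49.6% of all genes were lower). *Plod3* was the most abundant (59.6 ± 1.56 FPKM in EV and 39.5 ± 0.798 FPKM in KO). EV libraries had 3546, 3771, 3620.0 and 3759 normalized counts of *Plod3*, and KO libraries 2663, 2624, 2699 and 2582. *Plod1* had 1749 to 1986 in EV and 1421 to 1499 in KO, and *Plod2*, which modifies the telopeptides, had 3324 to 3627 in EV and 2886 to 3051 in KO. Their log2 fold changes were -0.48 ± 0.03, -0.36 ± 0.04 and -0.22 ± 0.03, with edgeR adjusted p-values of 1.5e-16, 6.6e-11 and 4.6e-08. Of the exon bases of *Plod3* and *Plod2*, 11.7% and 6.42% lie under genes on the other strand. *Has2*, a hyaluronan synthase, was called lower at 11.9, 13.3, 16.7 and 9.76 in EV and 5.26, 0, 6.59 and 8.44 in KO, a call lost with DESeq2, with adjustment over 30000 genes and without EV replicate 3 or KO replicate 2 (-1.34 to -0.89).

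The remaining genes carry the Mfap name and were grouped by it. *Mfap1a*, which encodes a splicing protein, and *Mfap3* were called higher by 0.22 and 0.18, and scaling by library totals ended both calls. *Mfap3l* was called lower with overlapping groups (73.6 to 85.5 in EV and 39.4 to 74.7 in KO, log2 fold change -0.48 ± 0.15). Without KO replicate 4 that value was -0.33 and without EV replicate 1 it was -0.46, and neither was called.

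Genes that process collagen were examined next to the collagens themselves. Of a list of 36, 24 had values, with 15 lower, 7 higher and 2 not called, and a median log2 fold change of -0.33 (all genes 49.6% lower, 47.1% higher, median 0.06). *P4ha3*, a catalytic subunit of the prolyl hydroxylase that stabilises the triple helix, had the largest fall. *P4ha3* had normalized counts of 237, 258, 255 and 227 in EV and 49.5, 39.3, 52.7 and 23.4 in KO. The fall was 5.93-fold (log2 fold change -2.57 ± 0.13 (SE), edgeR adjusted p = 1.2e-18). *P4ha1*, the more abundant catalytic subunit (72.5 ± 1.98 FPKM in EV against 5.41 ± 0.324 FPKM), had a log2 fold change of 0.04 ± 0.03 and was not called (-0.08 and called lower with scaling by library totals). *P4ha2*, the other catalytic subunit (22 ± 1.43 FPKM in EV), was higher (0.24 ± 0.04). *P4hb*, the partner subunit, was higher (0.36 ± 0.02).

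The enzymes named here that trim procollagen were lower. *Adamts2* and *Adamts3*, the proteases that remove the amino-terminal propeptide, had normalized counts of 506 to 622 in EV and 206 to 232 in KO (log2 fold change -1.42 ± 0.07 (SE), edgeR adjusted p = 2.5e-19) and of 231 to 304 in EV and 122.8 to 152 in KO (log2 fold change -1.01 ± 0.09 (SE), edgeR adjusted p = 7.6e-12). *Bmp1*, which removes the carboxy-terminal propeptide, and *Pcolce*, its enhancer, each fell 1.85-fold (-0.89 ± 0.04 and -0.89 ± 0.03 on the log2 scale). The related enhancer gene *Pcolce2* was not called, with a log2 fold change of 0.33 ± 0.12 and no overlap between the groups (edgeR adjusted p = 0.0115), and was called with DESeq2's size factors (0.34) and without EV replicate 2 (0.39). Of the genes of prolyl 3-hydroxylation and their relatives, *Crtap*, *Leprel4* and *Leprel2* were lower by 1.49, 1.46 and 1.36-fold, and *Lepre1* had no values. The prolyl 3-hydroxylase gene *Leprel1* was called higher at counts of 17.8 to 26.7 in EV and 27.4 to 45 in KO (log2 fold change 0.66 ± 0.22 (SE), edgeR adjusted p = 0.0046), with 28.4% of its exon bases under a gene on the other strand. That call was lost with DESeq2, with adjustment over 30000 genes, with scaling by library totals and without EV replicate 1 or 3 or KO replicate 4 (0.55 to 0.68).

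Against this, the largest rises of the list were in *Loxl4*, *Serpinh1* and *Lox*, but folding and cross-linking genes went both ways. The folding genes *Fkbp14* and *Ppib* were lower (-0.51 ± 0.06 and -0.20 ± 0.05 on the log2 scale). Part of the exon bases of both lies under a gene on the other strand. *Serpinh1*, the collagen-specific chaperone HSP47, had 14012, 14009, 14321 and 14512 in EV and 27003, 26072, 27197 and 27357 in KO, a rise of 1.89-fold (log2 fold change 0.92 ± 0.02 (SE), edgeR adjusted p = 6.6e-27). *Lox*, lysyl oxidase, which starts collagen and elastin cross-linking, had 12558, 12742, 12048 and 11898 in EV and 20894, 19909, 20648 and 22176 in KO (1.7-fold higher, log2 fold change 0.76 ± 0.03 (SE), edgeR adjusted p = 1.3e-22). Its relative *Loxl4* rose 2.38-fold, from between 733 and 788 in EV to between 1774 and 1848 in KO (log2 fold change 1.25 ± 0.04 (SE), edgeR adjusted p = 2.5e-25), while *Loxl2* and *Loxl3* fell (-0.17 ± 0.03 and -0.76 ± 0.06), with 5.57% and 11.6% of their exon bases under a gene on the other strand. In each of these genes the EV and KO libraries did not overlap. Of the tissue inhibitors of matrix proteases, *Timp3* was lower (-0.38 ± 0.03) and *Timp2* higher (0.25 ± 0.02).

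**Figure D5:**
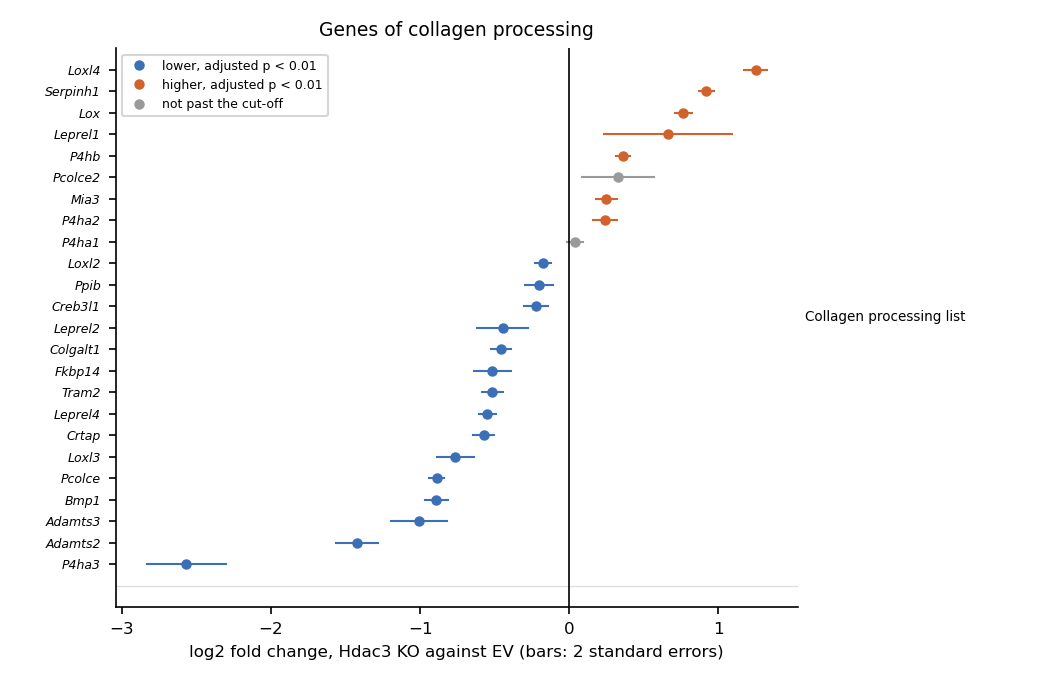
Log2 fold change, *Hdac3* KO against EV (x axis), of the 24 collagen processing genes with values, with bars of 2 standard errors on either side. Blue genes were lower and orange genes higher at an adjusted p under 0.01, and grey genes were not called. *P4ha3* and the propeptide proteases *Adamts2*, *Adamts3* and *Bmp1* lie at the low end and *Loxl4*, *Serpinh1* and *Lox* at the high end.

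Enzymes that make, sulfate or remove glycosaminoglycans were mostly lower, 19 of 24 with values (of 51), with 4 higher (all genes 49.6% lower, 47.1% higher) and a median log2 fold change of -0.30. *Cemip*, a hyaluronan depolymerising protein, fell 3.11-fold, from between 1701 and 1799.5 in EV to between 524 and 596 in KO. *Sulf1*, which removes sulfates from heparan sulfate outside the cell, fell 2.6-fold, from between 8216 and 8546 in EV to between 3122 and 3298 in KO. *Chst11*, a chondroitin sulfotransferase, fell 2.29-fold, from between 1117 and 1232 in EV to between 493 and 545 in KO. Among the rises were *Hpse*, heparanase (0.77 ± 0.11), *Glce*, the heparan sulfate epimerase (0.66 ± 0.03), and *Csgalnact2*, a chondroitin synthesis enzyme (0.24 ± 0.03).

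Of 27 genes of matrix receptors, 19 had values, with 11 lower and 8 higher, near the shares over all genes (49.6% lower, 47.1% higher), and a median log2 fold change of -0.16. *Itga1*, the integrin chain that binds collagen IV, had 186, 208, 165 and 164 in EV and 34.7, 43.9, 42.4 and 34.7 in KO, a fall of 4.6-fold (log2 fold change -2.20 ± 0.13 (SE), edgeR adjusted p = 6.0e-17). *Itga2b*, the platelet fibrinogen receptor chain, and *Cd47*, a thrombospondin receptor, were also lower (-0.92 ± 0.14 and -0.70 ± 0.03). *Cd44*, the main hyaluronan receptor, rose 2.17-fold, from between 1228 and 1277 in EV to between 2597 and 3009 in KO (log2 fold change 1.12 ± 0.04 (SE), edgeR adjusted p = 1.9e-23). *Itga7*, a laminin receptor chain, and *Ddr2*, a receptor for fibrillar collagens, rose by 0.73 and 0.62 on the log2 scale. *Itga5*, the chain that pairs with integrin beta 1 to bind fibronectin, rose by 0.33 and *Itgb1* itself was lower (-0.21 ± 0.02).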

How the data were processed

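RNA of EV and *Hdac3* KO MCECs (4 libraries each) was sequenced on an Illumina NextSeq500. For alignment the authors used tophat2 with bowtie2 and the mouse build mm10. The submitters' processing notes also name CASAVA and DESeq 1.6.3. The study's methods also name the cufflinks suite and, for the count matrix, the lumi package, and its statistics name DESeq2. The program that assigned reads to genes, its annotation and any use of strand are not given in the sources used here, so genes overlapping on opposite strands are uncertain. The deposited table gives raw counts per gene, the authors' FPKM values and the columns of their own comparison (group means, fold changes, p-values). Of these last, the adjusted p-value was read only to check that all 8278 genes were selected at under 0.05, and no value of that comparison is reported.

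Library totals were recovered from count, length and FPKM. Counts were tested with edgeR 4.0.16 (R 4.3.3), using TMM factors on those totals, the quasi-likelihood test on 2 groups and Benjamini-Hochberg adjustment over 8278 genes. A gene was called at an adjusted p under 0.01, the study's cut-off. Normalized counts are counts divided by relative library size, and SE is the log2 fold change divided by the root of F. The fitting was tested on simulated data with 200 of 8278 genes changed. In the real data nearly all genes were called, so that test cannot judge the TMM scaling, which used the selected genes only. Coordinates are those of the table (46 of the 59 genes have identical ones in GENCODE vM21). Members and lists were chosen with earlier results of these data known. Values were given per library for genes called with a change of 1 or more on the log2 scale and a mean of at least 100, for the most abundant gene of each role and for chains of one protein, and genes with means under 20 in both groups were only counted, unless a call or count turned on them. From the other lists, the 3 largest changes in each direction at a mean of at least 100 were named, and further genes there were picked with their values known. Alternatives were DESeq2 1.42.0, its size factors, library totals without TMM, a filter of 10 counts in 4 libraries, the replicate number as a block, adjustment over 30000 genes, a cut-off of 0.05 and leaving out each library.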

Additional observations from a re-analysis of the deposited data

Results flagged for a closer look

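In 8 of 118 groups of 4 libraries, 1 library stood apart from the other 3 (its gap to the nearest library, divided by the range, passed Dixon's 95% critical value), where chance gives about 1 in 20, or 5.9. All values are normalized counts.

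In EV, *Col4a3* had 98.2 in replicate 3 and 121 to 124 in the others (gap over range 0.873). *Col6a2* had 16612 in EV replicate 1 and 17038 to 17093 in the others (0.885). *Sdc4* had 7953 in EV replicate 2 and 8344 to 8422 in the others (0.833), and *Mfap3l* had 73.6 in EV replicate 4 and 83.6 to 85.5 in the others (0.837).

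In KO, *Col16a1* had 892 in replicate 2 and 798 to 806 in the others (0.911). *Gpc3* had 1633 in KO replicate 4 and 1714 to 1715 in the others (0.980). *Hspg2* had 10760.2 in KO replicate 3 and 12696 to 13057 in the others (0.843), and *Fn1*, in the same library, had 95962 against 106132 to 107885 (0.853). Apart from *Hspg2* and *Mfap3l*, whose groups overlap in any case, the library that stood apart lay outside the range of the other group.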

How the results depend on the processing

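Of the 59 genes, 46 kept their direction and their side of the cut-off under all 15 alternatives, and 13 did not. Leaving out each library gave 41 to 42 genes lower and 13 to 15 higher, and a median log2 fold change of -0.45 to -0.39. Scaling by library totals without TMM gave 8 genes higher, a median of -0.54, 1 fibrillar collagen, 0 linkers and 0 genes of the Mfap name higher, *Sparc* at -0.073, *Cyr61* at -0.038, *P4ha1* at -0.078 and *Tbx18* at -0.019. A rise of 1 or more was found in 2 genes with DESeq2 and with its size factors, and in 1 to 2 when a library was left out (2 without EV replicate 4 or KO replicate 3 or 4). Linkers called higher numbered 1 with DESeq2 and 1 to 2 without a library. *Has2* gave 0 calls with DESeq2 and with adjustment over 30000 genes, and 0 to 1 without a library, and *Mfap3l* gave 0 with adjustment over 30000 genes and 0 to 1 without a library. With adjustment over 30000 genes or fewer libraries, the larger correction or the smaller sample is part of the alternative itself. The cause of the other shifts was not tested. Libraries with the same replicate number did not deviate together (correlations -0.11 to 0.12), and the fit with the number as a block called 43 genes lower and 14 higher. Without a library, the log2 ratio of *Col8a1* to *Col8a2* differed by -0.095 to 0.129, turning its sign (a ratio chosen, like this alternative for the ratios, after seeing the data). Low counts limit *Col27a1*, *Col6a6*, *Lamc3* and *Has2*, whose means were under 20 in both groups.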
